A study of Mus musculus with 4 samples.

Results

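Genes that mark oligodendrocyte precursor cells or direct their development were followed in the mPFC (medial prefrontal cortex, at the front of the neocortex). They were taken by symbol from the table of mRNA levels and are Pdgfra, Cspg4, Gpr17, Olig1, Olig2, Sox10, Nkx2-2, Nkx6-2, Bcas1 and Enpp6. All 10 were present among the 17778 genes of the table. The tissue came from male C57BL/6 mice (C57BL/6J in the study's methods) that were juvenile when the experiment began. The CUMS group (2 libraries) had lived under chronic unpredictable mild stress. This was social isolation together with a changing schedule of restraint, noise, light, circadian and cage disturbances. The mice of this group had then met the criteria for depression-like behaviour in each of several tests. Stressed mice that stayed unaffected were left out by the study, so that the group stands for vulnerable mice only. The control group (2 libraries) lived without these stressors. The labels name the libraries by number and do not say whether each holds the RNA of a single mouse.

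Oligodendrocyte precursor cells are the dividing glial cells from which the myelin-forming oligodendrocytes arise, and they stay in the cortex through adult life. The receptor for platelet-derived growth factor keeps them dividing. As they leave the cell cycle they lose this receptor, pass through a short premyelinating stage and then switch on the myelin genes. The transcription factors Olig1, Olig2, Sox10, Nkx2-2 and Nkx6-2 act at different steps of this path, and Sox10 and the Olig factors remain present in the mature cell.

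Levels are given in RPKM, which scales the reads of a gene to its length and to the depth of the library, as the authors' mean for each group. No value for a single library was analysed here, so that the spread between mice is unknown and none of the differences has a test. The depth behind the means was estimated from the steps between low values as 7385524 fragments for each control library and 7440476 for each CUMS library. This is well below the numbers of reads mapped to genes that follow from the study's own mapping summary, and the gap was not resolved here, so that fragment counts and intervals hold for the estimated depth. From these depths an exact 95% interval of each log2 ratio was computed. It is called the counting interval below, it covers counting error only, and it would be wider if it included differences between mice. In bulk tissue, fewer cells of a type and less RNA per cell cannot be told apart.

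Of the 10 genes, 9 had a lower mean in CUMS and 1, Pdgfra, had a higher mean. The counting interval lay below 0 in 8 of the 10 and above 0 in none, and it included 0 for Pdgfra and Nkx2-2. Among the 14257 genes that reached 0.5 RPKM in control or CUMS, 16.8% had an interval below 0 and 12.5% had one above 0. A lower mean in CUMS was seen in 53.2% of the 14257 genes. The median log2 ratio of CUMS over control was -0.35 over the 10 genes and -0.02 over these 14257 genes. A fold change above 1.5, the size that the methods of the study use, was seen for Nkx6-2 and Enpp6, both lower in CUMS. Over the 14257 genes this fold was passed by 4.42% in the lower and by 2.78% in the higher direction. Summed over the 10 genes, the level was 186 RPKM in control against 144 RPKM in CUMS.

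**Figure D1:**
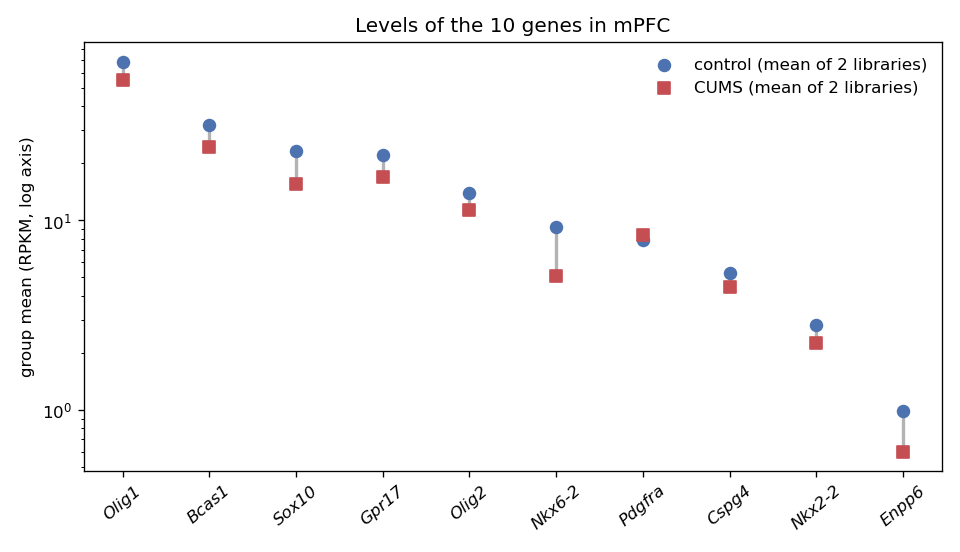
Group means of the 10 genes in RPKM on a log axis, ordered by their control level, with circles for control and squares for CUMS (each the mean of 2 libraries, with no spread available). The CUMS square lies under the control circle for every gene except Pdgfra, and the gap is widest for Nkx6-2 (9.27 and 5.07 RPKM).

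The levels of the 10 genes spanned from 0.99 RPKM for Enpp6 to 68.8 RPKM for Olig1 in control, and from 0.60 to 54.9 RPKM for the same genes in CUMS. RPKM is a level per length, so that genes may be ranked by it. In control the order from high to low was Olig1, Bcas1, Sox10, Gpr17, Olig2, Nkx6-2, Pdgfra, Cspg4, Nkx2-2 and Enpp6. Sox10 and Gpr17 were neighbours that did not differ beyond counting error (level ratio 1.05, interval 0.968 to 1.14). In CUMS the order of these genes was the reverse, again within counting error (level ratio of Gpr17 to Sox10 1.09, interval 0.992 to 1.20). Nkx6-2 stood above Pdgfra in control (level ratio 1.18, interval 1.02 to 1.36), whereas Pdgfra stood above Nkx6-2 in CUMS (level ratio 1.65, interval 1.38 to 1.99). Nkx6-2 then lay next to Cspg4, from which it did not differ beyond counting error (level ratio 1.13, interval 0.935 to 1.36). All other neighbours differed beyond counting error in both groups.

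Gene numbers below are the identifiers of the table, and positions are those of the mouse build GRCm38 (mm10). Of the cell surface genes of the precursors, Cspg4 and Gpr17 had an interval below 0 and Pdgfra did not. Pdgfra (gene 18595, chromosome 5, 75152292 to 75198215), which codes for the alpha receptor of platelet-derived growth factor, was 7.86 RPKM in control against 8.39 RPKM in CUMS. Its log2 ratio was 0.09 (counting interval -0.05 to 0.24), so that a difference was not detectable at this depth. It rests on 761 fragments in control and 818 in CUMS, summed over the libraries of each group. Of the 14257 genes, 72.1% had a log2 ratio as low or lower.

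Cspg4 (gene 121021, chromosome 9, 56865033 to 56899870) codes for the proteoglycan NG2 on the precursor surface. It was 5.29 RPKM in control against 4.48 RPKM in CUMS, a log2 ratio of -0.24 (-0.41 to -0.07). Gpr17 (gene 574402, chromosome 18, 31942997 to 31949636) codes for a G protein-coupled receptor that appears briefly as precursors commit to differentiation and is lost again before myelination. It was 22.1 RPKM in control against 17.0 RPKM in CUMS, a log2 ratio of -0.38 (-0.48 to -0.27). The log2 ratios of Gpr17 and Cspg4 did not differ beyond counting error (difference -0.14, -0.34 to 0.06). The ratio of Gpr17 to Pdgfra was 2.81 in control and 2.02 in CUMS. Gpr17 shares exon sequence with Lims2 on the opposite strand (7.64 and 6.83 RPKM), and since the use of strand in counting was not stated, reads of these genes cannot be told apart. The same holds for non-coding genes that overlap exons of Pdgfra, Olig1, Nkx2-2 and Bcas1 on the opposite strand.

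Pdgfra and Cspg4 also occur outside the lineage. Fibroblasts of the meninges express Pdgfra and pericytes of small vessels express Cspg4, so that markers of both were read beside them. Of 10 meningeal fibroblast genes, 6 were higher and 4 lower in CUMS, with a median log2 ratio of 0.11 and a summed level of 46.8 RPKM in control and 52.6 RPKM in CUMS. Dcn, a matrix proteoglycan of fibroblasts, was 2.20 and 4.02 RPKM (log2 ratio 0.87, 0.42 to 1.35), whereas the collagen gene Col1a1 was 2.81 and 2.39 RPKM (log2 ratio -0.23, -0.54 to 0.07). Of 10 pericyte and mural genes, 5 were higher and 5 lower, with a median of 0.00 and a sum of 79.3 and 79.8 RPKM. Pdgfrb, the mural cell receptor, was 8.46 and 7.96 RPKM (log2 ratio -0.09, -0.25 to 0.07). The ends of the fibroblast list were Col3a1 (-0.60) and Lum (-0.54) on the lower and Dcn and Ogn (0.86) on the higher side, and those of the mural list were Acta2 (-0.41) and Abcc9 (-0.28) against Rgs5 (0.17) and Anpep (0.40), all as log2 ratios. None of these markers was listed at 0. The intervals of Lum, Abcc9, Rgs5 and Anpep included 0, and Lum rested on 21 and 15 fragments. The part of these markers in the values of Pdgfra and Cspg4 was not tested.

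The lineage transcription factors were all lower in CUMS. Olig1 and Olig2 code for related basic helix-loop-helix factors, of which Olig2 specifies the lineage and Olig1 acts in its later maturation. They lie on the same strand of chromosome 16, Olig2 (gene 50913) from 91225457 to 91228677 and Olig1 (gene 50914) from 91269772 to 91271933, with 41095 bases between them. Olig1 was 68.8 RPKM in control against 54.9 RPKM in CUMS, a log2 ratio of -0.33 (-0.42 to -0.23). Olig2 was 14.0 and 11.3 RPKM, a log2 ratio of -0.30 (-0.49 to -0.11). The ratio of Olig1 to Olig2 was 4.92 in control and 4.84 in CUMS. The log2 ratios of both genes differed by -0.02 (interval of the difference -0.23 to 0.19), which is within counting error.

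Sox10 (gene 20665, chromosome 15, 79154908 to 79165240) codes for a high-mobility-group factor that the whole lineage carries and that activates myelin genes. It was 23.2 RPKM in control against 15.6 RPKM in CUMS, a log2 ratio of -0.58 (-0.72 to -0.43). At 1.49-fold lower it lay just under the fold of 1.5, whereas Enpp6 at 1.65-fold lay just beyond it. The log2 ratio of Sox10 was lower than that of Olig2 by a difference of -0.27 (-0.52 to -0.03) and lower than that of Olig1 by -0.25 (-0.42 to -0.08). Its relatives Sox8 and Sox9, which share its domain and part of its function in glia, had log2 ratios of -0.31 (-0.43 to -0.18) and -0.13 (-0.31 to 0.04). The difference of Sox10 from Sox8 was -0.27 (-0.47 to -0.07) and from Sox9 -0.44 (-0.67 to -0.21), so that Sox10 stood lower than both beyond counting error.

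The homeobox genes Nkx2-2 and Nkx6-2 marked the low-abundance end of the factors. Nkx6-2 (gene 14912, chromosome 7, 139579376 to 139582797) codes for a repressor that is present in myelinating oligodendrocytes. It was 9.27 RPKM in control against 5.07 RPKM in CUMS, which is 1.83-fold lower (counting interval 1.48 to 2.25) and the lowest ratio of the 10 genes. Of the 14257 genes, 2.12% had a log2 ratio as low or lower. Nkx6-2 shares exon sequence with Inpp5a on the opposite strand, and Inpp5a was 23.4 RPKM in control against 21.1 RPKM in CUMS. Nkx2-2 (gene 18088, chromosome 2, 147177546 to 147194243), which helps to time the onset of differentiation, was 2.82 and 2.25 RPKM. These values rest on 82 and 65 fragments, and the log2 ratio of -0.33 (-0.84 to 0.14) was not distinguishable from 0 at this depth. The difference of Nkx6-2 from Nkx2-2, -0.54 (-1.10 to 0.06), was not resolved either.

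Bcas1 and Enpp6 were taken as markers of cells that have begun to differentiate and are about to form myelin. Bulk values do not show at which stage a gene is expressed. Bcas1 (gene 76960, chromosome 2, 170346991 to 170427845) was 31.8 RPKM in control against 24.6 RPKM in CUMS, a log2 ratio of -0.37 (-0.49 to -0.26). Enpp6 (gene 320981, chromosome 8, 46986887 to 47096762) codes for a choline phosphodiesterase and was the rarest of the genes, with 0.99 and 0.60 RPKM. These values rest on 45 and 27 fragments. The log2 ratio of -0.72 (-1.49 to -0.03) therefore has a wide interval, which included 0 (-1.74 to 0.37) when the depth was taken as 0.5 times the estimate. Of these 2 markers, 1 was abundant and 1 rare, and both were lower in CUMS. The difference between their log2 ratios, 0.35 for Bcas1 against Enpp6 (-0.36 to 1.13), was within counting error. A longer list of 15 genes of newly formed oligodendrocytes, read below, had a median of -0.07, with 11 lower and 4 higher.

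**Figure D2:**
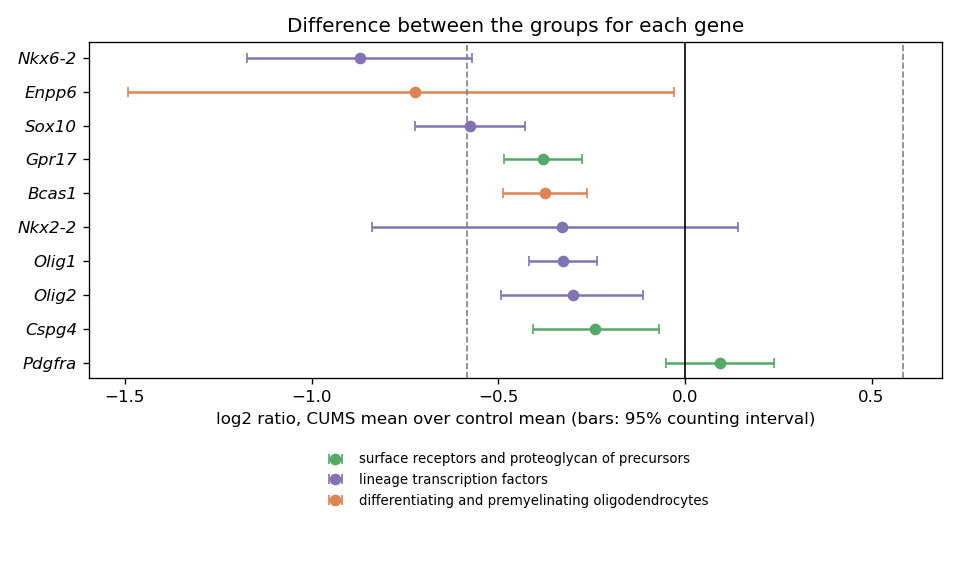
CUMS to control log2 ratio of the 10 genes, coloured by role, with bars for the 95% counting interval and dashed lines at a fold of 1.5. The points run from -0.87 for Nkx6-2 to 0.09 for Pdgfra, and the bars of Pdgfra and Nkx2-2 cross 0.

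The bases upstream of the transcription start are shown for the genes at the ends of this range, the pair with the lowest ratios (Nkx6-2 and Enpp6) and the gene with the highest (Pdgfra). RefSeq promoters of the build GRCm38.p6 were found for 6 of the 10 genes, and Bcas1, Gpr17, Olig1 and Sox10 had no entry. The 250 bases before the start are printed 5′ to 3′ on the strand of the gene. They lie at chr7:139582798-139583047 on the minus strand for Nkx6-2, at chr8:46986637-46986886 on the plus strand for Enpp6 and at chr5:75152001-75152250 on the plus strand for Pdgfra, and none of these windows holds an annotated exon. Capitals mark matches, on either strand, to the letters ACAAAG or ACAATG (bound by Sox factors), CAGCTG or CAGATG (E-boxes, bound by basic helix-loop-helix factors), GGGCGG (the GC box), CCAAT and TATAAA.
Nkx6-2: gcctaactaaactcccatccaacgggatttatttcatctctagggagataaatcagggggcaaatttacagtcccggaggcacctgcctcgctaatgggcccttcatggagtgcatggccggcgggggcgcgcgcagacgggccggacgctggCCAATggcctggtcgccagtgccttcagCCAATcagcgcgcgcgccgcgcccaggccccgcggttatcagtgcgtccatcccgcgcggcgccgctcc
Enpp6: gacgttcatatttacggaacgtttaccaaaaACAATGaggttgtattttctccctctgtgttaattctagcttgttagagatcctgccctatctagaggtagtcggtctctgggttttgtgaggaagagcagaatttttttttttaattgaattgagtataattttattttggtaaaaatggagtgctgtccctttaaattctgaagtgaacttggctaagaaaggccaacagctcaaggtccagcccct
Pdgfra: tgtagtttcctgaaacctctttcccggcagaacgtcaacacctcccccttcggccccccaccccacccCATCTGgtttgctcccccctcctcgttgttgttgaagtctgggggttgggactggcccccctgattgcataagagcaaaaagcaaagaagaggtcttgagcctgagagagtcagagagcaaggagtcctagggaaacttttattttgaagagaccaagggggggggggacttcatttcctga

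The Nkx6-2 window held CCAAT at 97 and 69 bases before the start, and 33.8% of all 32851 promoter windows hold this motif. Enpp6 held ACAATG at 219 bases before the start (10.7% of all windows), and Pdgfra held CAGATG in reverse at 182 bases (14.4%). The Nkx6-2 window was 65.2% G or C with 26 CpG dinucleotides, Enpp6 was 38.4% with 4, and Pdgfra was 54.4% with 4, where the medians over all windows were 52.4% and 6. Over the 6 windows, ACAATG was found in 2, CAGATG in 2, GGGCGG in 3, CCAAT in 2 and TATAAA in 1, whereas ACAAAG and CAGCTG were found in 0. These are matches of letters and not shown binding sites.

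How the log2 ratios of the genes compare with each other does not depend on the scaling of the libraries, because both genes come from the same libraries. Against Pdgfra, the log2 ratio was lower in 8 of the other 9 genes by more than counting error. Pdgfra had the highest log2 ratio of the 10 genes, and 72.1% of the 14257 genes had one as low or lower. The count of 8 therefore follows in part from the choice of this reference. The difference was -0.96 for Nkx6-2 (-1.30 to -0.63), -0.67 for Sox10 (-0.88 to -0.46), -0.47 for Gpr17 (-0.65 to -0.29) and -0.33 for Cspg4 (-0.56 to -0.11). For Nkx2-2 it was -0.42 and its interval (-0.95 to 0.07) included 0. These 9 differences were read after the values were known.

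**Figure D3:**
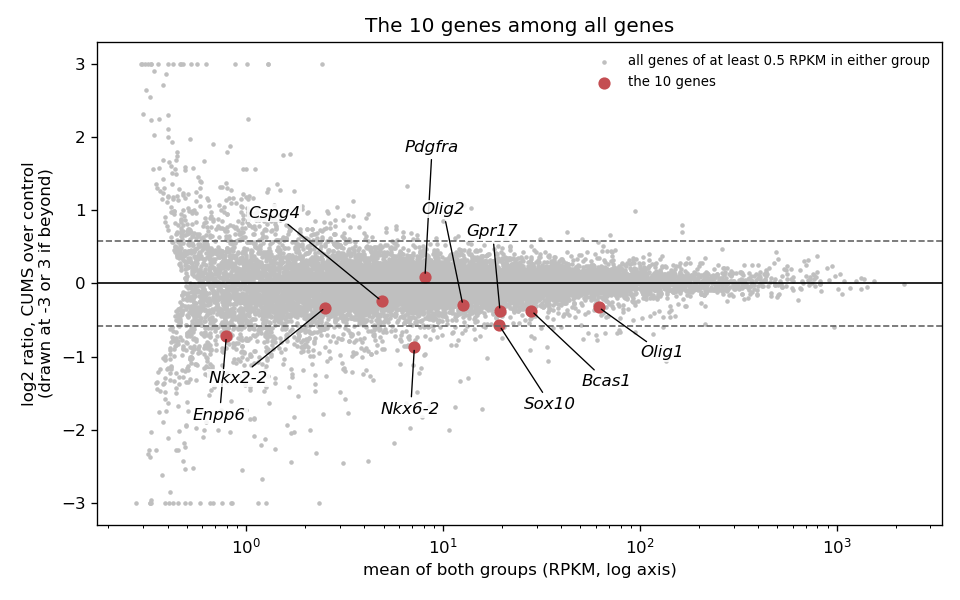
Log2 ratio of CUMS over control against the mean of both groups (RPKM, log axis) for the 14257 genes that reached 0.5 RPKM in control or CUMS in grey and the 10 genes in red, with dashed lines at a fold of 1.5. The grey cloud is wide at low levels and narrow at high levels, and 9 of the red points lie under the line at 0.

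Low levels scatter more, so that shares were also read over genes with a higher minimum. Such a set holds all higher levels and was not matched to the level of each gene. Nkx6-2 (9.27 RPKM in control and 5.07 RPKM in CUMS) lies toward its lower end, where ratios scatter more. Among the 9397 genes that reached 5 RPKM in control or CUMS, 1.28% were past the fold of 1.5 in the lower direction and 19.3% had a counting interval below 0. A log2 ratio as low as that of Nkx6-2 was seen in 0.436% of these genes, as low as that of Sox10 in 1.33%, and as low as that of Gpr17 in 3.67%. For Olig1 the share was 5.18% and for Cspg4 9.72%.

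Other genes of the lineage were read from lists that group them by role. Of 14 other genes that are high in precursors, 8 were higher and 6 lower in CUMS, with a median log2 ratio of 0.03 (-0.01 over those that reached 5 RPKM). The counting interval lay above 0 in 3 of them and below 0 in 3 (12.5% and 16.8% of all genes). Lowest were Matn4, a matrix protein (-0.38, -0.67 to -0.08), and Ptprz1, a receptor phosphatase (-0.32, -0.43 to -0.22). Highest were Vcan, the matrix proteoglycan versican (0.36, 0.07 to 0.65), and Rlbp1, a retinoid-binding protein (0.34, 0.11 to 0.56). Several of these genes are also expressed by astrocytes or neurons.

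Of 10 other regulators that promote the lineage, 9 reached 0.5 RPKM and all 9 were lower in CUMS, with a median of -0.21. Over all genes, 53.2% were lower. The interval lay below 0 in 3 of the 9 regulators (16.8% of all genes). These were Myrf, the factor that switches on myelin genes (11.4 and 8.88 RPKM, log2 ratio -0.37, -0.50 to -0.22), Sox8, and Zfp488 (-0.18, -0.28 to -0.09). Zeb2, which helps differentiation to proceed, was 9.06 and 9.04 RPKM (log2 ratio -0.004, -0.12 to 0.11), and Zfp536 had a log2 ratio of -0.11 (-0.49 to 0.27). Of 8 regulators that hold differentiation back, 3 were higher, 4 were lower and 1, Hes1, had equal means, with a median of 0.00. Sox5 was higher (log2 ratio 0.37, 0.19 to 0.56) and its partner Sox6 was lower (-0.58, -0.82 to -0.35). In bulk tissue the cell types behind the values of these regulators are not known. Lingo1, a neuronal and glial inhibitor of myelination, was higher (0.28, 0.23 to 0.33), and Notch1 was lower (-0.19, -0.32 to -0.05).

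Among 12 growth factor signals and receptors of the lineage, 9 were lower and 3 higher in CUMS, with a median of -0.35. The interval lay below 0 in 6 of them (16.8% of all genes). The median was -0.22 with a pseudocount of 1 RPKM. The ligands of the platelet-derived growth factor receptors each had an interval that included 0. Pdgfa, the ligand of Pdgfra, was 23.7 and 26.7 RPKM (log2 ratio 0.18, -0.03 to 0.38), and Pdgfc was 3.11 and 3.48 RPKM (0.16, -0.15 to 0.48). Pdgfd rested on 28 and 16 fragments (-0.83, -1.80 to 0.12). The 6 genes with an interval below 0 were all receptors (Fgfr1, Fgfr2, Fgfr3, Erbb3, Igf1r and Lpar1). The ligand Igf1 rested on 55 and 39 fragments (-0.52, -1.14 to 0.11). Igf1 and Pdgfd had lower log2 ratios than Fgfr1, so that the call of an interval also depends on fragment number. Erbb3, the neuregulin receptor of the lineage, had the lowest ratio of the list, with 4.33 RPKM in control and 1.93 RPKM in CUMS (log2 ratio -1.17, -1.50 to -0.85). The receptors of fibroblast growth factors Fgfr1, Fgfr2 and Fgfr3 had log2 ratios of -0.37, -0.38 and -0.59, and Fgfr3 also belongs to the astrocyte list.

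Of the relatives of the 10 genes, Olig3 and Nkx2-5 were not in the table. Nkx2-1, a factor of the ventral forebrain and hypothalamus, was 2.56 RPKM in control against 0.67 RPKM in CUMS (93 and 25 fragments, log2 ratio -1.94, -2.61 to -1.26). Nkx2-3, Nkx2-9, Nkx6-1 and Nkx6-3 rested on at most 4 fragments in either group and give no ratio. Enpp4 (log2 ratio -0.12, -0.33 to 0.11), Enpp2 (0.10, 0.01 to 0.19) and Enpp5 (0.15, 0.07 to 0.23), which belong to the family of Enpp6, were more abundant than Enpp6 and lay nearer to 0.

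Over all genes, 53.2% were lower in CUMS and 16.8% had an interval below 0. Along the path to myelin, 15 genes of newly formed oligodendrocytes had a median of -0.07, with 11 lower, 4 higher and an interval below 0 in 2. Tcf7l2, a factor of this stage that also counts among the promoting regulators, was 1.60 and 1.31 RPKM (log2 ratio -0.29, -0.76 to 0.15), and Rras2 was higher (0.39, 0.13 to 0.66). Bmp4 had a log2 ratio of -0.26 and Tmem108 one of 0.13, both with intervals that included 0. Of 22 genes of mature oligodendrocytes and myelin, 21 were lower and 1 was higher, the interval lay below 0 in 16, and the median was -0.43. The study names some of these genes, Mbp among them, as changed in the same samples, so that their direction is not independent evidence. Lowest were the protease gene Klk6 (log2 ratio -1.08) and the cytoskeletal gene Anln (-0.99), and the carbonic anhydrase gene Car2 (-0.09) was next to the highest. Klk6 rested on 30 and 14 fragments (-2.14 to -0.15). Mog, a protein of the outer myelin sheath, was 33.9 and 24.8 RPKM (log2 ratio -0.45, -0.60 to -0.30), and Opalin, a protein of mature oligodendrocytes, was 14.7 and 15.1 RPKM (0.04, -0.25 to 0.33). The 10 genes thus had a median between those of newly formed and of mature oligodendrocyte genes, without a test of the difference.

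**Figure D4:**
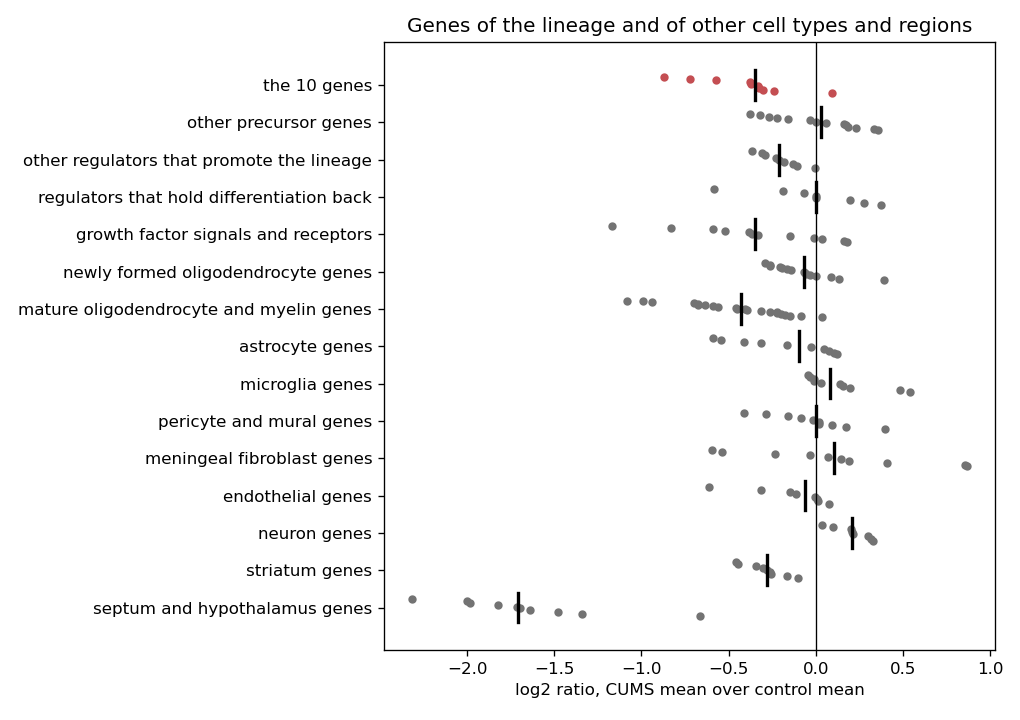
Log2 ratio of CUMS over control for each gene that reached 0.5 RPKM in control or CUMS (points) and the median of each list (black bar), with the 10 genes on top in red. The median is -0.35 for the 10 genes, 0.03 for other precursor genes and -0.43 for mature oligodendrocyte and myelin genes, and the genes of septum and hypothalamus lie farthest to the left.

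Markers of regions near the mPFC were lower in CUMS as well. Of 10 septum and hypothalamus genes all 10 were lower in CUMS (median -1.71, summed level 240.0 and 111 RPKM), and the study lists these genes as changed in the same samples, so that their direction is not independent evidence. Of 9 striatum genes all 9 were lower (median -0.28, summed level 556 and 458 RPKM). Over all genes that reached 0.5 RPKM, 53.2% were lower in CUMS, and 6639 of 14257 were higher. Genes of cortical and other neurons were higher in 8 of 8 (median 0.21, summed level 2702 and 3138 RPKM). The log2 ratios ran from -2.32 (Magel2), with Prkcd next, to -1.34 (Zic1) and -0.67 (Hap1) for septum and hypothalamus, from -0.46 (Penk) and -0.45 (Adora2a) to -0.17 (Ppp1r1b) and -0.10 (Tac1) for striatum, and from 0.04 (Tubb3) and 0.10 (Rbfox3) to 0.32 (Slc17a7) and 0.33 (Neurod6) for neurons. None of these markers was listed at 0. Their part in the values of the 10 genes was not tested, and with 1 mean per group it could not be followed from library to library.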

How the data were processed

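mRNA from the mPFC was sequenced in 2 control and 2 CUMS libraries. Per the methods of the study, paired reads were trimmed with SolexaQA and aligned to mm10 with TopHat (version 1.0.12) and Bowtie (version 0.11.3), as the submitters' processing notes give them, and reads with a unique position were summed by gene. Which annotation was used, and whether strand was considered, is not given in the sources used here. The deposited values were RPKM, averaged by the authors over the libraries of a group. The authors' fold changes and probabilities in the same table were not used. A mean of 0.01 stood in for 0. The authors' gene lengths were used to turn RPKM into fragments.

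The product of mean and length steps by 1 fragment in 1 library. The steps, found in genes under 1000 bases with a product under 350, were 67.7 in control and 67.2 in CUMS, and 86.7% and 86.2% of the 405 and 392 values were whole multiples of the step to within 0.15. Fragments per gene are sums over the libraries of a group, if these had equal depth. How PCR duplicates were handled is not stated in the methods of the study. Ratios have exact Clopper-Pearson 95% intervals and differences between genes exact conditional odds ratio intervals (Python 3.11.15, SciPy 1.17.1). The estimator was tested on simulated data. limma, leaving out a library and a block on the replicate number need values per library and were not run.

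The members and lists were chosen with earlier results of these data known. The rule for named genes took all members and relatives, from each other list the 2 highest and the 2 lowest log2 ratios among genes that reached 0.5 RPKM, and Pdgfrb, Dcn, Col1a1, Mog and a further gene that is not reported here. Zfp488, Hes1, Sox9, Inpp5a, Lims2, Fgfr1, Fgfr2, Igf1, Igf1r, Lpar1, Mbp, Top2a, Mki67, the gene pairs and the motifs were chosen after the values were seen. Gene positions are those of GENCODE M21 (GRCm38, the same assembly as mm10).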

Additional observations from a re-analysis of the deposited data

How the results depend on the processing

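No paired analysis was possible because only group means were given, and for the same reason no library could be left out. The number of the 10 genes past the fold of 1.5 was 2. It was 1 with a pseudocount of 1 RPKM and 1 with a minimum of 5 RPKM, which leaves out Enpp6 and Nkx2-2. It was 7 with a lower threshold (0.32 on the log2 scale) and 0 with a fold above 2. It therefore depends on the fold threshold. The number with a counting interval that excludes 0 was 8, and 7 to 8 under the alternatives. It was 7 of the 10 genes at 0.5 times the estimated depth. With a minimum of 5 RPKM it was 7 among the genes that remain without Enpp6 and Nkx2-2. The median log2 ratio of the 10 genes ranged from -0.36 to -0.32. Setting the median log2 ratio of all genes to 0 shifted every log2 ratio by 0.015 and setting equal totals shifted it by -0.008. In 40 values of single genes under rescaling or a pseudocount, 40 stayed inside the counting interval. Their direction could not change, so that it is no check. A pseudocount added to both means cannot turn the sign of a ratio, and both shifts were smaller than every log2 ratio of the 10 genes. The log2 ratio of Enpp6 was -0.31 with a pseudocount of 1 RPKM. Some list medians moved by more than 1.5 times. With a pseudocount of 1 RPKM that of growth factor genes was -0.22 (-0.35 without) and that of proliferation genes 0.12 (0.27 without). With a minimum of 5 RPKM it was 0.056 for proliferation genes, 0.011 for microglia genes, and of the opposite sign for other precursor genes (-0.01) and relatives (0.006). The medians of mural genes and of regulators that hold differentiation back lay so close to 0 that rescaling turned their sign. Rare genes (Enpp6, Nkx2-2) are limited by depth, and all genes by the lack of values per library.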

Other observations

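Genes of dividing cells were read because precursors are the main dividing cells of the cortex. Of 8 such genes, 7 reached 0.5 RPKM and all 7 had a higher mean in CUMS, with a median log2 ratio of 0.27, and the counting interval lay above 0 in 1 of them, where 12.5% of all genes have such an interval. Cdk1 (0.28 RPKM in control, 0.62 RPKM in CUMS) and Ccnb1 (0.485 and 0.875 RPKM) reached 0.5 RPKM only through CUMS. That all 7 were higher therefore follows in part from this minimum. Over all genes that reached 0.5 RPKM, 6639 of 14257 were higher. The median was 0.21 over all 8 genes without a minimum. It was 0.12 with a pseudocount of 1 RPKM and 0.056 over those that reached 5 RPKM. The gene with an interval above 0 was Cdk1, a kinase that drives mitosis, which rested on 12 fragments in control and 26 in CUMS (log2 ratio 1.15, counting interval 0.07 to 2.23). Ccnb1 rested on 17 and 30 fragments, with a log2 ratio of 0.85 (-0.10 to 1.76). Pcna had a log2 ratio of 0.08 and Ccnd1 one of 0.03, both with intervals that included 0. Top2a, an enzyme that untangles DNA in division, was 0.69 and 0.83 RPKM (0.27, -0.29 to 0.81). Mki67, the usual marker of cycling cells, was below 0.5 RPKM in both groups (0.27 and 0.18 RPKM) and had the opposite sign (-0.63, -1.40 to 0.12).

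Other glial and vascular lists were read without a test of their difference from the 10 genes. Astrocyte genes had a median of -0.10 over 10 genes, with an interval below 0 in 5 and above 0 in 2 (16.8% and 12.5% of all genes), with Gjb6, a gap junction protein, at -0.54 (-0.70 to -0.39) and the water channel Aqp4 at 0.12 (-0.01 to 0.26). Microglia genes had a median of 0.08 over 10 genes, with the purine receptor P2ry12 at 0.54 (0.35 to 0.73) and the complement gene C1qb at -0.05 (-0.20 to 0.11). Endothelial genes had a median of -0.06 over 8 genes, with the tight junction gene Cldn5 at -0.61 (-0.77 to -0.45) and the transporter gene Slco1a4 at 0.08 (-0.09 to 0.24). The other ends of these lists were Fgfr3 (-0.59) and Slc1a3 (0.11) for astrocytes, Trem2 (-0.04) and Aif1 (0.48) for microglia, and Pecam1 (-0.31) and Tek (0.01) for endothelium. The intervals of Trem2, Aif1 and Tek included 0, and Aif1 rested on 45 and 63 fragments.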
